A study of Mus musculus with 6 samples.

Results

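Leukaemia inhibitory factor (LIF) is the cytokine that keeps mouse embryonic stem cells (ESCs) undifferentiated in culture, and 8 genes of its signalling route were followed here in gastruloids: the ligand gene *Lif*, the receptor chains *Lifr* and *Il6st*, the kinases *Jak1* and *Jak2*, the transcription factor *Stat3*, and its feedback targets *Socs3* and *Pim1*. They were chosen by symbol among the 35565 mouse gene identifiers of the count table, and all 8 were found and passed the filter on low counts, which kept 15110 genes. Gastruloids, aggregates of ESCs that form an elongating body axis, were collected at day 5. Bulk RNA was sequenced from 3 libraries of KD-1 gastruloids, grown from a clone in which the ultraconserved lncRNA *T-UCstem1* is knocked down, and from 3 of Control (NT) gastruloids, grown from non-targeting cells. The parental line of both is TBV2 129/SvP, and both received a pulse of CHIR99021, a GSK3 inhibitor that activates WNT signalling. Before aggregation the ESCs were grown in serum with LIF, a GSK3 inhibitor and a MEK inhibitor, and they were then aggregated in N2B27, a serum-free medium for which the methods name no LIF. KD-1 is 1 clone, and clone and knockdown cannot be told apart. The labels give the Control genotype as WT, whereas the paper describes non-targeting cells, and the paper's description is used. *T-UCstem1* transcripts were not analysed here.

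LIF binds the receptor chain LIFR, which then pairs with gp130, the product of *Il6st* and the shared signalling chain of the interleukin-6 (IL-6) cytokine family. Kinases of the JAK family bound to these chains phosphorylate STAT3, which enters the nucleus and activates genes such as *Socs3*, *Pim1*, *Klf4* and *Tfcp2l1*. SOCS3 in turn binds gp130 and restrains the JAK kinases, whereas PIM1 is a serine/threonine kinase that promotes survival. In mouse ESCs this route maintains naive pluripotency, the state of the pre-implantation epiblast. The libraries measure transcripts, not STAT3 phosphorylation.

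Library totals ran from 20982249 to 85561026 counts, and libraries are named here by their depth (lowest, middle or highest) within their group, since the columns give the group but not the replicate of the labels. Nothing says that the libraries of a group came from separate cultures beyond the label of biological replicates. The Control (NT) library of middle depth stood apart. Relative to the other Control (NT) libraries, the 4297 genes of shortest exon length were higher by a median of 0.135 on the log2 scale, and the 4296 of longest exon length had a median of -0.117. In the same measure the Control (NT) library of lowest depth had -0.117 and 0.0815, and the KD-1 libraries stayed between -0.0193 and 0.0274. Between the groups, the median log2 fold change was -0.197 over the shortest genes and 0.0641 over the longest. Among markers of the tissue, the summed level of 7 genes of presomitic and somitic mesoderm was 428.6 to 501.3 CPM (counts scaled by library size, TMM-normalized) in Control (NT), against 3.42 to 3.65 in KD-1, and that of 9 naive pluripotency genes was 1041 to 1073 CPM and 2186 to 2282 CPM. *Meox1* made up most of the mesoderm sum in Control (NT), at 354.3, 387.7 and 371.9 CPM in the order of depth. *Dppa5a* made up most of the naive sum, at 716.6, 740.6 and 737.0 CPM in Control (NT) and 1259.9, 1200.3 and 1205.6 CPM in KD-1. In bulk samples, fewer cells of a type and less RNA per cell cannot be told apart.

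In KD-1 gastruloids the receptor gene *Lifr* and the target gene *Pim1* rose by nearly the same factor, while *Socs3*, the feedback inhibitor, fell. Of the other genes, *Il6st*, *Jak1* and *Stat3* did not pass the test. *Lif* was higher and *Jak2* lower at an adjusted p under 0.05, each by less than the fold change required. Calls required an adjusted p under 0.05 (edgeR's quasi-likelihood test, Benjamini-Hochberg over all genes tested) and a change of more than 1.5-fold in either direction. By this rule 2 of the 8 genes were called higher and 1 lower. This is a share of 37.5%, against a background of 37.7% (19.7% higher, 18.1% lower), so the number of calls among the 8 genes does not set them apart. By the adjusted p alone, 3 were higher and 2 lower, where 30.9% and 32.6% of all genes passed (63.5% in either direction). Their median log2 fold change was 0.16, against -0.01 over all genes tested. The groups did not overlap in 6 of the 8 genes, as in 70.6% of all genes tested.

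**Figure D1:**
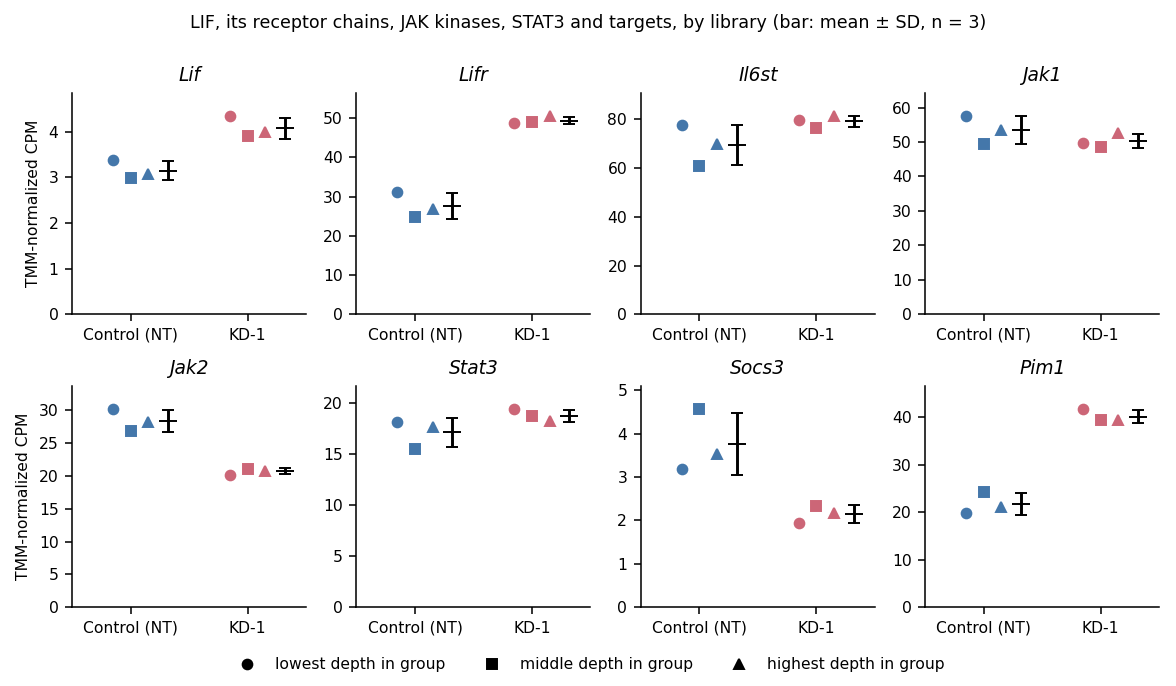
TMM-normalized CPM (y axis, starting at 0) of the 8 genes in each of the 3 Control (NT) and 3 KD-1 libraries, with marker shapes for depth within the group and bars for the mean ± SD (n = 3). *Lifr* and *Pim1* lie higher and *Socs3* and *Jak2* lower in every KD-1 library, while *Il6st* and *Jak1* overlap between the groups.

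The ligand gene *Lif* (ENSMUSG00000034394, chromosome 11 of GRCm39, from 4207557 to 4222514, plus strand) was weakly expressed. It had 3.38, 2.99 and 3.09 CPM in the Control (NT) libraries of lowest, middle and highest depth and 4.34, 3.91 and 3.995 CPM in the KD-1 libraries in the same order. All KD-1 libraries lay above all Control (NT) libraries, from 70, 101 and 171 counts against 182, 170 and 347. The difference, a 1.30-fold change (log2 0.38, standard error 0.14), passed the adjusted p (0.039, edgeR) but not the fold change, and with the test, scaling, filter or libraries changed it passed the adjusted p in 6 of 12 other fits. Gastruloids of both groups therefore held transcripts of the cytokine.

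The receptor gene *Lifr* (ENSMUSG00000054263, chromosome 15, from 7120095 to 7226970, plus strand) had 31.2, 24.9 and 26.8 CPM in Control (NT) and 48.8, 49.0 and 50.5 CPM in KD-1. The KD-1 libraries were close together and well above the highest Control (NT) library. The mean rose from 27.6 ± 3.24 to 49.4 ± 0.926 CPM (SD, n = 3 each), a 1.79-fold change (log2 0.84, standard error 0.09, adjusted p = 5.1e-05, edgeR). With the middle-depth Control (NT) library left out it was 0.78 on the log2 scale.

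Its partner chain gp130 did not follow. *Il6st* (ENSMUSG00000021756, chromosome 13, from 112600604 to 112646620, plus strand) had 77.6, 61.0 and 70.0 CPM in Control (NT) and 79.7, 76.5 and 81.3 CPM in KD-1, with overlap between the groups. *Il6st* differed by 0.19 on the log2 scale (95% interval -0.01 to 0.39, adjusted p = 0.082, edgeR), so that an increase of the size seen for *Lifr* lay outside the interval. It passed the adjusted p in 3 of 12 other fits, and the log2 fold change over the 12 lay between 0.11 and 0.27.

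Because *Lifr* and *Il6st* are counted in the same library, their ratio does not depend on the scaling between libraries. The CPM of *Lifr* over that of *Il6st* was 0.403, 0.409 and 0.384 in Control (NT), against 0.612, 0.640 and 0.621 in KD-1. On the log2 scale this ratio differed by 0.65 between the groups, which did not overlap (exact two-sided permutation test, p = 0.1, adjusted p = 0.1 over 4 ratios). For 3 libraries against 3 this test cannot go below 0.1.

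Of the kinases, *Jak1* (ENSMUSG00000028530, chromosome 4, from 101008838 to 101122487, minus strand) had 57.4, 49.4 and 53.4 CPM in Control (NT) and 49.8, 48.6 and 52.7 CPM in KD-1, with overlap between the groups. Its log2 fold change of -0.08 had a 95% interval from -0.25 to 0.08 (adjusted p = 0.34, edgeR). It overlaps *Raver2*, which had a mean of 16.8 CPM, and whether the counting used strand is not stated. *Jak2* (ENSMUSG00000024789, chromosome 19, from 29228677 to 29290505, plus strand) had 30.1, 26.9 and 28.2 CPM in Control (NT) and 20.2, 21.1 and 20.8 CPM in KD-1. Every KD-1 library lay below every Control (NT) library, a 0.731-fold change (log2 -0.45, standard error 0.07, adjusted p = 5.5e-04, edgeR), which passed the adjusted p in all 12 other fits and the 1.5-fold threshold in none. The CPM of *Jak2* over that of *Jak1* fell from between 0.526 and 0.545 in Control (NT) to between 0.397 and 0.436 in KD-1 (exact two-sided permutation test, p = 0.1, the smallest possible).

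*Stat3* itself (ENSMUSG00000004040, chromosome 11, from 100775924 to 100830450, minus strand) had 18.2, 15.5 and 17.7 CPM in Control (NT) and 19.4, 18.8 and 18.2 CPM in KD-1. The KD-1 libraries lay just above the Control (NT) libraries, the lowest KD-1 value being 18.2 and the highest Control (NT) value also 18.2 after rounding. The log2 fold change was 0.13 (95% interval -0.06 to 0.32, adjusted p = 0.19, edgeR), and it passed the adjusted p in 0 of 12 other fits (lowest adjusted p 0.080). The gene overlaps *Stat5a* on the opposite strand, which had a mean of 1.29 CPM.

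The feedback targets went opposite ways. *Pim1* (ENSMUSG00000024014, chromosome 17, from 29709581 to 29715086, plus strand) had 19.8, 24.2 and 21.2 CPM in Control (NT) and 41.7, 39.4 and 39.5 CPM in KD-1, so that the lowest KD-1 library lay far above the highest Control (NT) library. The mean rose from 21.7 ± 2.25 to 40.2 ± 1.31 CPM (SD, n = 3 each), a 1.84-fold change (log2 0.88, standard error 0.08, adjusted p = 3.2e-05, edgeR). *Socs3* (ENSMUSG00000053113, chromosome 11, from 117856905 to 117860898, minus strand) had 3.18, 4.56 and 3.54 CPM in Control (NT) and 1.93, 2.34 and 2.16 CPM in KD-1. The CPM of the middle-depth Control (NT) library was the highest of the 6, and no KD-1 library reached the lowest Control (NT) value. The values rest on 66, 154 and 196 counts against 81, 102 and 188. The change was 0.569-fold (log2 -0.81, standard error 0.19, adjusted p = 0.0046, edgeR), and without the middle-depth Control (NT) library the log2 fold change was -0.66 (adjusted p = 0.0039), still past the threshold.

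Set against *Stat3* in the same library, *Socs3* had a CPM ratio of 0.180, 0.298 and 0.205 in Control (NT), against 0.104, 0.130 and 0.124 in KD-1. *Pim1* over *Stat3* was 1.09, 1.55 and 1.20 in Control (NT), against 2.14, 2.09 and 2.16 in KD-1. Neither ratio overlapped between the groups. They moved in opposite directions, by -0.91 and 0.75 on the log2 scale (exact two-sided permutation test, p = 0.1 for each, the smallest possible). The Control (NT) library of middle depth had the highest value of both ratios in its group, and without it the differences were -0.69 and 0.90. Exon length differs within these pairs (*Socs3* 3560 bp, *Pim1* 3508 bp, *Stat3* 10096 bp), as it does for *Jak2* (6333 bp) and *Jak1* (10826 bp). A shift with exon length does not cancel in such a ratio, and its part was not tested.

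**Figure D2:**
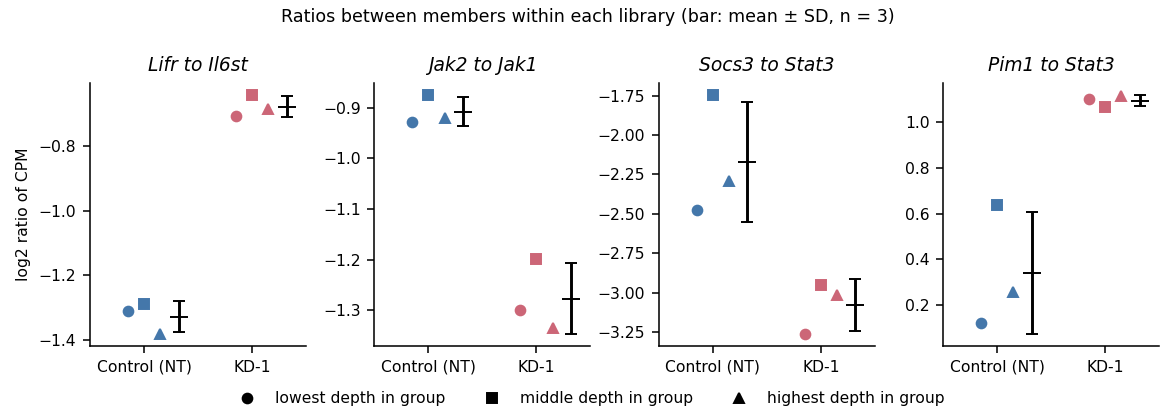
Log2 ratio of the CPM of 2 genes within the same library (y axis) for 4 pairs, in 3 Control (NT) and 3 KD-1 libraries, with marker shapes for depth and bars for the mean ± SD (n = 3). *Lifr* to *Il6st* and *Pim1* to *Stat3* are higher, and *Jak2* to *Jak1* and *Socs3* to *Stat3* lower, in every KD-1 library; the y axes differ between panels and do not start at 0.

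The promoter of *Socs3* is printed since, among the 8 genes, it is the called target that fell. It also held the only match among the 8 genes to TTCNNNGAA, the palindromic letters to which STAT dimers bind. The sequence is the 250 bases before the RefSeq start site (GRCm38.p6, chr11:117969367-117969616, minus strand), with the match in capitals, beginning 154 bases before the start.

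Socs3: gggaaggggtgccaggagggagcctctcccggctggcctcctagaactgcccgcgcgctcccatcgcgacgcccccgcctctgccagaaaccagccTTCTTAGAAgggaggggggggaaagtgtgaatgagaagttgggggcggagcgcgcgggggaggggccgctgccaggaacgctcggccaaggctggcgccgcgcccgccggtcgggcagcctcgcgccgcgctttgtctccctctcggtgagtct

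For comparison, the window before the first listed start site of *Pim1*, the called target that rose (GRCm38.p6, chr17:29490535-29490784, plus strand), held no match.

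Pim1: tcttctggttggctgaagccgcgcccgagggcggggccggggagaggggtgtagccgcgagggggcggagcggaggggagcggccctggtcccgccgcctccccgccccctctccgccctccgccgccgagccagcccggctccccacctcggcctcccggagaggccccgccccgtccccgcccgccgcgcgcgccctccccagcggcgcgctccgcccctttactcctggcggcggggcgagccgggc

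Over all 32851 RefSeq windows of this length 7.02% held the motif, which reads the same on both strands. Of the 10 windows of the 8 genes 1 did, and of the 12 windows found for 11 of 13 STAT3 target genes 1 did, that of *Socs3* in both cases. A match is a description of the letters and not a site in use, and the absence of these letters says nothing of STAT3 binding elsewhere.

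Levels can be ranked between genes only per length. In Control (NT), CPM per kb of annotated exon was highest for *Pim1* (6.20 ± 0.641, SD, n = 3), followed by *Jak1* (4.94 ± 0.370), *Jak2* (4.49 ± 0.257) and *Il6st* (4.48 ± 0.537), which overlapped one another. *Lifr* (2.00 ± 0.235), *Stat3* (1.70 ± 0.139), *Socs3* (1.06 ± 0.201) and *Lif* (0.684 ± 0.0436) came below them. *Lifr* and *Stat3* lay close, with the lowest *Lifr* library at 1.805 and the highest *Stat3* library at 1.801. The order was different in KD-1. Below *Pim1* (11.5 ± 0.373 CPM per kb), *Il6st* (5.10 ± 0.155) lay above *Jak1* (4.65 ± 0.191), *Lifr* (3.58 ± 0.0672) above *Jak2* (3.27 ± 0.0743), and *Lif* (0.886 ± 0.0498) above *Socs3* (0.603 ± 0.0581), in each case with no overlap between the libraries. The exon lengths are those of all annotated transcripts together, which can exceed the transcripts present.

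The wider family of the pathway, written out as 7 lists of 72 distinct genes, is shown in the plot of fold changes by list. Among the 62 that were tested, 16 rose and 9 fell, a share of 40.3% against 37.7% of all genes tested. The 16 include *Osm*, which the filter on low counts kept only through the KD-1 libraries. The lists were chosen with results of these libraries known, and their counts are a description.

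**Figure D3:**
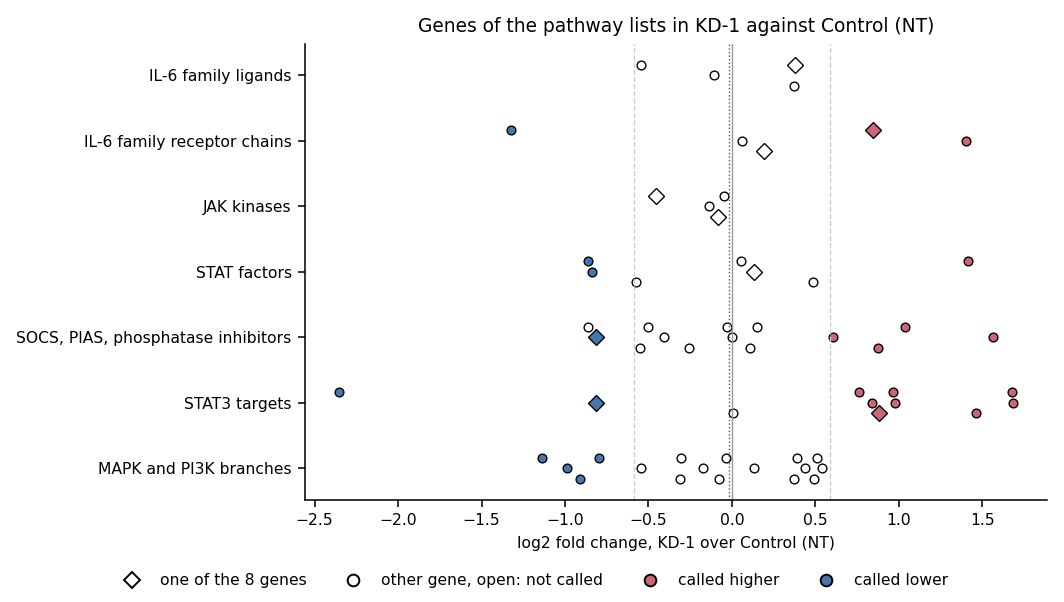
Log2 fold change of KD-1 over Control (NT) (x axis) for each tested gene of the 7 pathway lists (rows), with diamonds for the 8 genes, filled markers for genes called higher or lower, dashed lines at a 1.5-fold change and a dotted line at the median of all genes tested. *Osm* (absent from Control (NT) libraries) is not drawn; the STAT3 targets are the list with most called genes, and no JAK kinase was called.

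Of 10 ligand genes of the IL-6 family, 5 were tested and 1 was called, a share of 20% against 37.7% of all genes tested. This was *Osm*, which encodes oncostatin M and passed the filter on low counts only through the KD-1 libraries. With at least 10 counts required in every library it was not tested. Without counts in Control (NT) it could only be called higher, so its call is a description. It had 0 counts in every Control (NT) library and 15, 15 and 34 in KD-1, a level at least 14.2-fold higher (0.378 CPM over the KD-1 libraries against a limit of 0.0267 CPM, 3 counts over the Control (NT) libraries together). *Ctf1*, the gene for cardiotrophin 1, had 5.11, 5.68 and 4.22 CPM in Control (NT), against 3.60, 2.99 and 3.64 in KD-1, a log2 difference of -0.54 that passed the adjusted p (0.017, edgeR) but not the fold change. *Cntf* and *Clcf1* overlapped between the groups. *Il6* had at most 1 count in any library and *Il27* had 0 in all of them, so that a level under the limit of 3 counts (0.143 CPM in the shallowest library) could not be seen.

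Among 7 receptor chain genes (5 tested), 2 rose and 1 fell, a share of 60% against 37.7% of all genes tested. Beside *Lifr*, *Il6ra*, the IL-6 receptor, rose from 1.54, 0.918 and 0.993 CPM to 3.20, 2.71 and 2.95 (log2 1.40, standard error 0.23, adjusted p = 7.6e-04, edgeR). *Il11ra1*, the IL-11 receptor, fell from 3.91, 4.83 and 4.44 CPM to 1.93, 1.77 and 1.60 (log2 -1.32, standard error 0.16, adjusted p = 1.5e-04, edgeR). The groups did not overlap in either gene. *Cntfr*, the receptor for ciliary neurotrophic factor, varied more within Control (NT), with 12.1, 22.4 and 14.2 CPM, than between the groups. *Osmr*, which oncostatin M can use together with gp130, had at most 6 counts in any library.

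None of the 4 JAK kinase genes was called (0 of 4, by edgeR, DESeq2 or limma-voom), where edgeR called 37.7% of all genes tested. Of the 4, 1, *Jak2*, was under an unadjusted p of 0.05 and under the adjusted p. *Jak3* and *Tyk2* had log2 fold changes of -0.14 and -0.05. Among the 7 STAT genes, *Stat4* was called higher and *Stat5a* and *Stat5b* lower, a share of 42.9% against 37.7% of all genes tested. *Stat4* had 5.21, 5.59 and 5.22 CPM in Control (NT), against 14.3, 13.3 and 15.05 in KD-1 (log2 1.41, standard error 0.10, adjusted p = 5.2e-06, edgeR). *Stat4* lies on chromosome 1, where the 871 genes tested had a median log2 fold change of 0.49 and the share called higher was 40.2%, against 18.0% for the other autosomes together. The part of this shift in the level of *Stat4* was not tested. *Stat5b* fell from 8.63, 12.7 and 10.8 CPM to 6.13, 5.98 and 5.68 (log2 -0.86, adjusted p = 8.3e-04, edgeR), and *Stat5a* had a log2 fold change of -0.84 that lost its call without the KD-1 library of lowest or of middle depth.

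Among 15 genes for inhibitors of the pathway (14 tested), 4 rose and 1, *Socs3*, fell. This share of 35.7% is near the 37.7% of all genes tested, so the number of calls does not set the list apart. *Socs2*, which encodes an inhibitor best known from growth hormone signalling, rose from 23.0, 30.8 and 23.5 CPM to 78.5, 75.4 and 75.0 (log2 1.57, standard error 0.11, adjusted p = 5.4e-06, edgeR). *Socs4* rose from 57.8, 51.6 and 53.8 CPM to 107.8, 110.6 and 115.2 (log2 1.03). *Pias2* and *Ptpn6*, the gene of the phosphatase SHP-1, were the other two, with log2 fold changes of 0.87 and 0.61, and *Ptpn6* lost its call without the Control (NT) library of lowest depth. *Socs5*, *Socs6* and *Socs7* had log2 fold changes between -0.03 and 0.15 and did not pass the test. *Ptpn1*, *Pias1*, *Pias3* and *Pias4* passed the adjusted p with log2 fold changes from -0.55 to -0.26, all within the fold change threshold. *Cish* had a log2 fold change of -0.86, near that of *Socs3*, but the groups overlapped and it did not pass the adjusted p (0.069, edgeR). It was called lower by limma-voom, with at least 10 counts required in every library, and without the Control (NT) library of lowest depth. *Socs1* had at most 13 counts in any library and was not tested.

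The STAT3 targets had the highest share of called genes among the 7 lists. Among its 13 genes (11 tested), 8 rose and 2 fell, a share of 90.9% against 37.7% of all genes tested, with a median log2 fold change of 0.88 against -0.01. Among the marker lists of cell types the share ran from 33.3% (blood and macrophages) to 100% (such as presomitic and somitic mesoderm), with 77.8% for naive pluripotency. A high share is therefore not particular to the STAT3 targets. The list holds *Pim1* and *Socs3*. *Pim2*, a second PIM kinase, rose from 7.57, 8.38 and 7.94 CPM to 27.4, 24.8 and 24.9 (log2 1.69, standard error 0.08, adjusted p = 7.45e-07, edgeR), whereas *Pim3* had a log2 fold change of 0.01 with overlapping groups. *Klf4*, *Klf5*, *Tfcp2l1* and *Gbx2*, transcription factor genes through which LIF maintains ESCs, had log2 fold changes of 1.46, 0.96, 1.68 and 0.98. The paper names *Klf4* and *Tfcp2l1* among its pluripotency genes, so the list is not separate from the pluripotency markers. *Tfcp2l1* was at 159.7, 107.0 and 141.3 CPM in Control (NT), against at 422.3, 431.7 and 448.9 in KD-1, and like *Gbx2* it lies on chromosome 1. *Mcl1*, a survival gene, and *Fos* rose by 0.76 and 0.84 on the log2 scale.

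The 2 targets that fell were *Socs3* and *Myc*. *Myc*, a driver of growth and of ESC self-renewal, had 27.4, 41.7 and 28.1 CPM in Control (NT), against 6.80, 6.25 and 6.04 in KD-1 (log2 -2.35, standard error 0.17, adjusted p = 5.9e-06, edgeR). *Junb* and *Bcl3* were not tested, with 6, 20 and 7 counts against 9, 7 and 9 for *Junb* and 1, 10 and 7 against 2, 3 and 1 for *Bcl3*, in the order of depth.

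**Figure D4:**
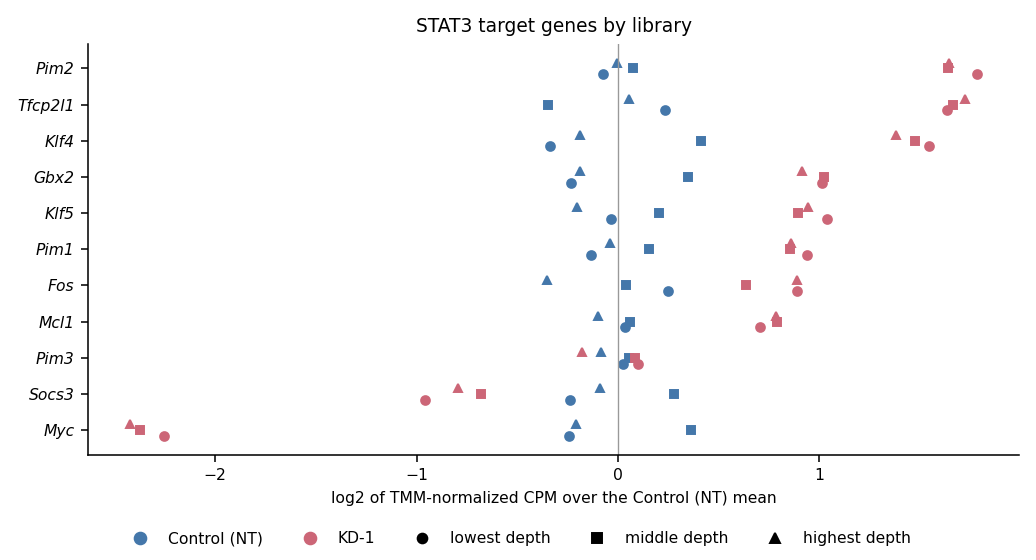
Log2 of the TMM-normalized CPM of each library over the Control (NT) mean (x axis) for the 11 tested STAT3 target genes (rows), with colours for the group and marker shapes for depth. KD-1 libraries lie above all Control (NT) libraries in 8 genes and below them in *Socs3* and *Myc*, and the groups overlap in *Pim3*.

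Beside these targets, 7 of 9 naive pluripotency markers were called higher in KD-1 and 0 lower, with a median log2 fold change of 1.56, where 19.7% of all genes tested were higher and 18.1% lower. *Nanog* (log2 1.67), *Esrrb* (1.87) and *Prdm14* (1.90) changed by more than *Lifr* or *Pim1*, while *Tbx3* and *Dppa3* were not called. Of 6 formative and primed markers 4 were called higher, among them *Otx2* (log2 3.30), while *Sall2* (log2 -0.37) and *Zic2* (log2 -0.43) passed the adjusted p in the other direction within the fold change threshold. Of 6 neural markers 5 were called higher, among them *Tubb3* (log2 2.91). All 6 tested genes of presomitic and somitic mesoderm were called lower. The part of these cell types in the levels of *Lifr*, *Pim1*, *Socs3* and the other STAT3 targets was not tested.

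LIF also signals through MAPK and PI3K, and 17 genes of these branches were all tested. None was called higher (0 of 17, by edgeR, DESeq2 or limma-voom) and 4 were called lower, a share of 23.5%. Over all genes tested the share was 37.7% (19.7% higher, 18.1% lower). Of the 17 genes, 6 were higher at an unadjusted p under 0.05, and the same number by the adjusted p. Without the Control (NT) library of lowest depth, *Sos1* and *Braf* were among the genes called higher. *Mapk3* (ERK1) fell from 44.1, 45.1 and 44.6 CPM to 27.2, 25.8 and 24.1 (log2 -0.80). *Map2k2* fell by 1.14 on the log2 scale, *Akt1* by 0.99 and *Pik3r1* by 0.91. *Ptpn11*, the phosphatase SHP-2 that links gp130 to MAPK, had a log2 fold change of -0.17.

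Over the 6 libraries, the profiles nearest to those of the called genes among the 12926 others with a mean of at least 1 CPM were found by the root mean square distance of centred log2 CPM. For *Lifr* they were *Desi2* (0.0208) and *Zscan26* (0.0220), for *Pim1* *Degs1* (0.0292) and *Ppic* (0.0345), and for *Socs3* *Dnlz* (0.0418) and *Hoxd8* (0.0469). In that order their log2 fold changes were 0.82, 0.82, 0.91, 0.92, -0.75 and -0.85. With only 2 groups, such a search finds genes with a like difference between the groups, and shared regulation was not tested.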

How the data were processed

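Bulk RNA sequencing libraries of Control (NT) and KD-1 gastruloids (n = 3 each) were analysed. The authors quantified paired-end TruSeq reads with Salmon (version 1.1 in the submitters' processing notes) on a Gencode gene model and deposited the estimated counts per Ensembl gene, in whole numbers and not normalized. Genome build, use of strand and rounding are not given in the sources used here. Gene names, positions and exon lengths came from GENCODE vM39 (GRCm39), which matched 35222 of 35565 identifiers.

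The counts went into edgeR (version 4.0.16 in R 4.3.3), with filterByExpr, TMM and a robust quasi-likelihood fit of the condition alone. Benjamini-Hochberg adjustment covered the 15110 genes kept. Ratios within a library used CPM of the library total with a pseudocount of 0.1 CPM. The tests were tried on simulated data. Alternatives were DESeq2 (version 1.42.0), limma-voom (limma 3.58.1), RLE or no composition normalization, no filter or at least 10 counts in every library, an absolute log2 fold change over 1 or no fold change threshold, a pseudocount of 0.5 CPM, and each library left out. Libraries of the same group were no copies of one another (chi-square per degree of freedom of at least 4.85), and each was counted as 1 sample. The p-values measure only the spread between these libraries. A limit of 3 counts for a count of 0 covers counting error only.

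The 8 genes, the lists and the tests were chosen with earlier results of these data known. Genes named are the 8 genes, members of the pathway and marker lists, and, for each called gene, the 2 nearest profiles. Marker lists covered naive and primed pluripotency, somitic mesoderm, neural cells, endoderm, endothelium, cardiac mesoderm, feeder fibroblasts and blood. Promoter sequences are RefSeq windows on GRCm38.p6.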

Additional observations from a re-analysis of the deposited data

How the results depend on the processing

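The calls of *Lifr*, *Pim1* (higher) and *Socs3* (lower) held in all 12 other fits that changed the test, scaling, filter or libraries, and no log2 fold change of the 8 genes changed sign. The log2 fold change of *Socs3* ranged from -0.91 to -0.66, and that of *Lifr* from 0.78 to 0.93. The fold change threshold mattered most. At an absolute log2 fold change over 1, 0 of the 8 genes were called in either direction, 8 genes of the pathway lists were called higher and 3 lower, and 3274 genes overall (1948 higher, 1326 lower). With no fold change threshold, 3 of the 8 genes were higher (*Lif*, *Lifr* and *Pim1*) and 2 lower (*Jak2* and *Socs3*), 24 genes of the pathway lists were higher and 19 lower, and 9597 genes overall passed (4676 higher, 4921 lower). With each library left out in turn, between 5176 and 6113 genes were called, 2 of the 8 genes higher and 1 lower in every case, and 16 to 18 genes of the pathway lists higher and 8 to 12 lower. The log2 ratio differences kept their sign with a pseudocount of 0.5 CPM and without each library. Without composition normalization the median log2 fold change of all genes moved by 0.0575, and 57.2% of calls were higher, against 52.2% with TMM. No paired analysis was possible because the column names do not carry the replicate numbers of the labels. The depth limits *Lif* and *Socs3* most, with 66 counts as the lowest value of *Socs3*.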

Other observations

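Markers of other cell types were also counted. Over all genes tested, 19.7% were called higher and 18.1% lower. Of 8 feeder fibroblast genes, 5 were tested and 4 were called lower, and their summed level was 34.0 to 37.6 CPM in Control (NT) and 0.979 to 1.13 in KD-1. *Fap* made up most of it, at 30.5, 25.2 and 28.2 CPM against 0.0477, 0.0230 and 0.0461, while *Col1a1* was at 0.434, 0.681 and 0.541 CPM in Control (NT). *Thy1* of the same list lay higher in KD-1 (log2 1.59) and was not called (adjusted p = 0.083, edgeR). Of 6 endothelial genes, 4 were tested, of which *Pecam1* and *Tek* were called higher and *Kdr* and *Etv2* lower. *Cdh5*, which defines endothelium, had at most 0.379 CPM in any library. *Pecam1*, which ESCs also express, rose from 14.4, 14.4 and 14.7 CPM to 28.9, 28.7 and 30.7. Of 6 blood and macrophage genes, 3 were tested and *Cd68* was called lower, and *Ptprc*, *Csf1r* and *Spi1* were at 0 counts in every Control (NT) library. Of 5 endoderm genes, 3 were tested and *Cer1* and *Foxa1* were called lower. Of 5 cardiac genes, 2 were tested, with *Tnnt2* called lower and *Myh6* higher. The part of these cell types in the levels of the LIF pathway genes was not tested.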
